A study of Homo sapiens with 60 samples.

Results

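HepG2 cells, a human liver carcinoma line, were treated for 24 h with water extracts of medicinal herbs, and the treated libraries of the series carry a code of set, replicate and position. Set 6 holds 18 of the 60 libraries: Cinnamomi Cortex (cinnamon bark) and Astragali Radix (astragalus root), each at 20, 100 and 500 µg/mL and each in replicates 1, 2 and 3. The 6 libraries of replicate 1 were compared with the 12 libraries of replicates 2 and 3. The fit held a term for each of the 6 combinations of extract and dose, so each replicate 1 library was set against libraries given the same extract at the same dose. Replicate 1 was singled out because its hypoxia and glycolysis genes were lower in these libraries, so the values of this contrast are descriptions. No p-value is printed for it, and the threshold on adjusted p that marks a gene as called serves only to sort its genes. Tests are given for other contrasts. These are replicate 2 against 3, the same contrasts in sets 5 and 7, the differences between extracts and between doses, and the dose trends. Replicate 1 of set 6 was set apart with earlier results of these data known. That choice favours few calls between replicates 2 and 3 and in the other sets, so low counts there are no independent support.

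All 60 libraries share the cell line, the 24 h of exposure and the batch letter in their titles. The 3 vehicle libraries received DMSO, at 0.1% in the sample labels and 2% in the design text, and they have no set number, so they cannot be matched to a set. The labels do not say whether a replicate number marks a culture, a plate, an RNA preparation or a sequencing run, and in set 6 these cannot be told apart. Nothing states that replicates were separate cultures, so each p-value reflects the variation among these libraries alone, and that variation may be technical. In bulk RNA, fewer cells with a transcript and less of it per cell cannot be told apart.

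When oxygen is short, prolyl hydroxylases stop marking the alpha subunits of the hypoxia-inducible factors (HIF) for destruction through the VHL ubiquitin ligase. The stabilised subunit pairs with ARNT and binds a short core motif at its targets, among them glucose transporters, glycolytic enzymes, pyruvate dehydrogenase kinase, angiogenic factors and some of the hydroxylases themselves. In cultured liver cells the pathway responds to the oxygen that reaches the cell layer, and iron chelators also activate it.

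The bases before the start of PFKFB3, PFKFB4 and KDM3A are shown because these genes had some of the largest differences on the hypoxia list and hold the HIF core motif there. The sequences are from RefSeq, build GRCh38.p14. They run 5′ to 3′ on the strand of the gene over the 250 bases before its RefSeq start. That start can differ from the one in GENCODE 29, the source of the gene spans below. The windows of PFKFB4 and KDM3A lie inside the GENCODE 29 spans of these genes. Capitals mark ACGTG or GCGTG, which read CACGT or CACGC where the match is on the other strand.
PFKFB3, chr10:6144671-6144920, plus strand: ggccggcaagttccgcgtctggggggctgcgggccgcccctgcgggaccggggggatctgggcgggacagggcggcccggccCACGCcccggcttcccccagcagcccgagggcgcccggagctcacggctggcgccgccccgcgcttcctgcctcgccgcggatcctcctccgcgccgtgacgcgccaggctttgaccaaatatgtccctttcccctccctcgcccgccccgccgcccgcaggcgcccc
PFKFB4, chr3:48556804-48557053, minus strand: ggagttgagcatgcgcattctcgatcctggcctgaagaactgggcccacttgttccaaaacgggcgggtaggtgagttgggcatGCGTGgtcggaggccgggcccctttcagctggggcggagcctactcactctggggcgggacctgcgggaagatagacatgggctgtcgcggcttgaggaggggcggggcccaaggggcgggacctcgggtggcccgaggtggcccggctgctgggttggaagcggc
KDM3A, chr2:86441121-86441370, plus strand: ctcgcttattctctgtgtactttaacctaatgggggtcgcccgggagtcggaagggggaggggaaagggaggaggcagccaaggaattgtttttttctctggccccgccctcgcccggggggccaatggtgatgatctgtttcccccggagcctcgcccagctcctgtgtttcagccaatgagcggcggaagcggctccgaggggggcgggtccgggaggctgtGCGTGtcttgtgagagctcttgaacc
Each window held 1 match, and none lay within the E-box CACGTG, which contains ACGTG. Of the 33 hypoxia list genes called lower (below), 26 had a promoter in the table and 19 of these (73.1%) held the motif, as did 52 of the 71 listed genes with a promoter (73.2%). Among the 11096 tested genes with a promoter in the table the share was 56.4%. A match describes letters and is not a binding site.

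Total counts, in units of 1e6, ran from 16.5 to 27.2 in replicate 1, lowest with Astragali Radix at 500 µg/mL, and from 22.4 to 32.6 in replicates 2 and 3. Mitochondrial transcripts took 14.9% to 21.9% of the counts in replicate 1 and 15.5% to 22.3% in replicates 2 and 3. Under Astragali Radix replicate 1 had the lowest share at each dose, with 15.2% against 16.9% and 16.1% at 20 µg/mL, 15.6% against 16.6% and 16.1% at 100 µg/mL and 14.9% against 18.7% and 15.5% at 500 µg/mL, and the part of this in the results was not tested. The hepatocyte gene ALB was at 9291 to 10530 CPM (counts per 1e6 counts, after scaling) in replicate 1 and at 9654 to 11080 CPM in replicates 2 and 3. The liver factor HNF4A was at 316 to 352 CPM in replicate 1 and at 310 to 354 CPM in replicates 2 and 3. The 20 markers of other cell types summed to 158 to 226 CPM in replicate 1 and 161 to 229 CPM in replicates 2 and 3, with CD3E, HBB and KRT5 at 0 in all 18 libraries, and 0 of the 7 that could be tested were called.

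In replicate 1, 464 of 16167 genes tested differed from replicates 2 and 3 (2.87%), 248 of them lower (1.53%) and 216 higher (1.34%), at an adjusted p under 0.05, the threshold for a called gene here. The count was 255 without replicate 1 of Cinnamomi Cortex at 20 µg/mL and 288 without replicate 1 of Astragali Radix at 100 µg/mL. The differences were small. The median log2 difference was -0.19 among the lower genes and 0.15 among the higher ones, and 15 lower and 7 higher genes differed by 1.5-fold or more. Replicate 1 had the lowest of its group's 3 values in all 6 groups for 203 of the genes tested (1.26%) and the highest in all 6 for 200 (1.24%). Those counts were 54 (0.334%) and 92 (0.569%) for replicate 1 of set 5, and 34 (0.21%) and 46 (0.285%) for replicate 1 of set 7, the sets of other extracts.

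Among called genes of at least 2 CPM with replicate 1 lowest in all 6 groups, the 12 largest differences ran from -0.85 to -0.45 and included PFKFB3, CALCRL-AS1, TUBB1, MIR210HG, PFKFB4, IGFBP1, NDRG1, TNS1, TMCC1, FAM13A and PPP2R2C. Among those with replicate 1 highest in all 6 groups, the 12 largest ran from 0.75 to 0.26 and belonged to SLX1A, FBXO36, LINC01806, PTP4A3, ARSI, GARNL3, ARRDC4, TMEM198B, PLK2, CYP1A1, BTG2 and CDKN1A. GARNL3 lost its call in 8 of 18 fits with 1 library left out, and also within each extract. CALCRL-AS1 is antisense to another gene, and whether the counting used strand is not given in the sources used here. SLX1A is uncertain, because reads can fall to its near-identical copy SLX1B, which differed by -0.36 ± 0.13. Both copies together summed to 36.0 to 43.5 CPM in replicate 1 and 31.8 to 50.5 CPM in replicates 2 and 3, and replicate 1 was highest in 4 of 6 groups.

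Of the 88 genes on the hypoxia and glycolysis list 84 could be tested, and 33 were called lower and 0 higher. LDHB, COX4I2, BHLHE41 and PPP1R3B did not pass the filter on low counts. The difference was below 0 for 76 of the 84, with a median of -0.10 against 0.00087 over all genes tested. Since low values of these genes are why replicate 1 was chosen, the counts support nothing and serve to show which members differed.

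The HIF subunits and most of the sensors were not called. HIF1A, the gene of HIF-1 alpha, was at 228 to 265 CPM (median 234) in replicate 1 and 226 to 254 CPM (median 238) in replicates 2 and 3, a log2 difference of 0.0013 ± 0.034 (SE, as after every ± below unless stated). EPAS1, the gene of HIF-2 alpha, differed by -0.03 ± 0.022, ARNT by -0.01 ± 0.038 and VHL by 0.05 ± 0.030. The alpha subunits are regulated largely as proteins, which RNA counts do not measure. The prolyl hydroxylase genes EGLN1 and EGLN3, which are HIF targets themselves, were called lower. EGLN1 was at 48.2 to 135 CPM (median 58.3) in replicate 1 and 60.6 to 141 CPM (median 66.9) in replicates 2 and 3, a difference of -0.20 ± 0.041, with replicate 1 lowest in all 6 groups. EGLN3 differed by -0.53 ± 0.15 at medians of 0.877 CPM in replicate 1 and 1.41 CPM in replicates 2 and 3, and it lost its call in 10 of 18 fits with 1 library left out and with DESeq2, whereas EGLN1 kept it in those fits. EGLN2 and HIF1AN, the gene of the asparaginyl hydroxylase, differed by -0.02 ± 0.046 and -0.03 ± 0.028 and were not called.

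Regulators of glycolytic flux held the largest difference on the list. PFKFB3 (ENSG00000170525, chr10:6144934-6254644) makes fructose 2,6-bisphosphate, the activator of phosphofructokinase. With Cinnamomi Cortex at 20 µg/mL it was at 3.45 CPM in replicate 1 against 6.37 and 7.29 CPM in replicates 2 and 3. At 100 µg/mL the values were 3.90 CPM against 8.41 and 9.04 CPM, and at 500 µg/mL 27.8 CPM against 29.8 and 29.3 CPM. Replicate 1 was lowest at each dose, far below the others at 20 and 100 µg/mL and close to them at 500 µg/mL. Under Astragali Radix it ran from 2.14 to 2.47 CPM in replicate 1 and from 5.15 to 7.45 CPM in replicates 2 and 3, with no overlap, and the 3 vehicle libraries averaged 2.53 ± 0.300 CPM (SD, n = 3). Over both extracts the difference was -0.85 ± 0.12, a 0.555-fold level.

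PFKFB4 (ENSG00000114268, chr3:48517684-48562015), another enzyme of that family, was at 17.0 to 75.5 CPM (median 18.6) in replicate 1 and 26.0 to 90.1 CPM (median 31.0) in replicates 2 and 3, a difference of -0.62 ± 0.057. Leaving aside Cinnamomi Cortex at 500 µg/mL, it ran from 17.0 to 20.8 CPM in replicate 1, from 26.0 to 38.7 CPM in replicates 2 and 3 and was at 19.4 ± 1.71 CPM in vehicle (SD, n = 3), so replicate 1 lay at the level of vehicle and the others above it. PDK1, the kinase that holds pyruvate back from the citric acid cycle, was at 34.8 to 106 CPM (median 36.5) in replicate 1 and 44.4 to 104 CPM (median 52.3) in replicates 2 and 3. Its difference was -0.34 ± 0.047, with replicate 1 lowest in 5 groups and highest with Cinnamomi Cortex at 500 µg/mL. The lactate exporter gene SLC16A3 (-0.09 ± 0.055) and TIGAR (0.10 ± 0.042), a phosphatase that lowers fructose 2,6-bisphosphate, were not called.

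**Figure D1:**
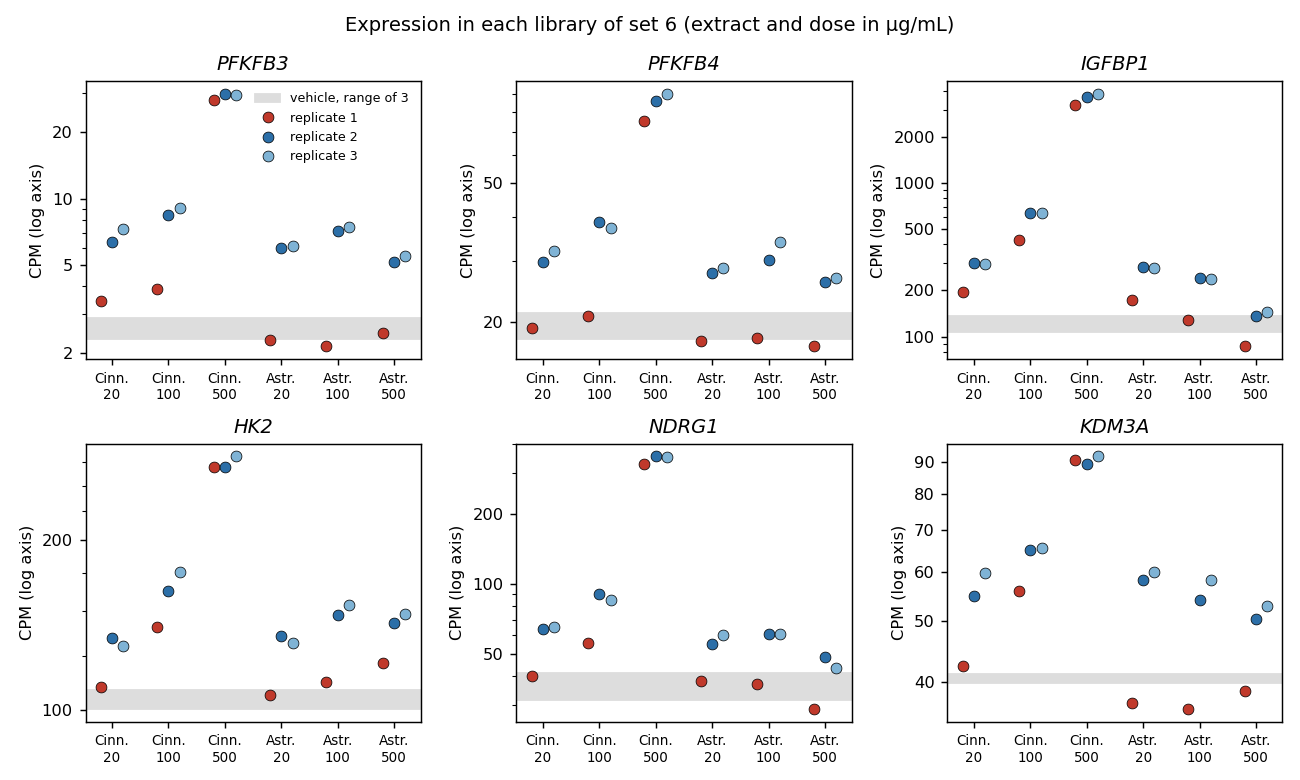
CPM (log axis) of 6 genes in each of the 18 libraries of set 6, by extract and dose in µg/mL; points are single libraries and the grey band is the range of the 3 vehicle libraries. Replicate 1 lies below replicates 2 and 3 in every panel and group except KDM3A with Cinnamomi Cortex at 500 µg/mL, where it was at 90.5 CPM against 89.3 and 91.8 CPM.

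Of 18 glucose transporters and glycolytic enzymes 4 were called lower. The transporter gene SLC2A3 was at 114 to 245 CPM (median 132) in replicate 1 and 151 to 251 CPM (median 172) in replicates 2 and 3, a difference of -0.30 ± 0.039, and SLC2A1 differed by -0.12 ± 0.032. HK2, the hexokinase of the first step, differed by -0.26 ± 0.033 at medians of 117 CPM in replicate 1 and 148 CPM in replicates 2 and 3, with replicate 1 lowest in all 6 groups. PGAM1, a phosphoglycerate mutase, differed by -0.12 ± 0.033. SLC2A1 lost its call in 11 of 18 fits with 1 library left out, and PGAM1 in 10. The most abundant enzymes were not called. GAPDH was at 2365 to 5522 CPM (median 2655) in replicate 1 and 2406 to 5370 CPM (median 2525) in replicates 2 and 3, a difference of 0.0069 ± 0.030. LDHA, which makes lactate, was at 1274 to 2835 CPM (median 1336) in replicate 1 and 1216 to 2761 CPM (median 1409) in replicates 2 and 3, a difference of -0.02 ± 0.030. Between these extremes stood ALDOA (-0.07 ± 0.027), PGK1 (-0.08 ± 0.030), PKM (-0.07 ± 0.029) and ENO2 (-0.10 ± 0.036), with values below 0 that were not called.

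Among 10 genes of pH control and secreted products 6 were called lower. VEGFA, the angiogenic factor, was at 114 to 187 CPM (median 116) in replicate 1 and 120.4 to 183 CPM (median 135) in replicates 2 and 3, a difference of -0.14 ± 0.028. EPO, the gene of erythropoietin, was at 6.74 to 10.5 CPM (median 7.45) in replicate 1 and 7.97 to 12.7 CPM (median 9.67) in replicates 2 and 3, a difference of -0.32 ± 0.073. For VEGFA and EPO replicate 1 was lowest in 5 groups and highest with Cinnamomi Cortex at 500 µg/mL. ADM, adrenomedullin, was at 4.23 to 44.7 CPM (median 6.06) in replicate 1 and 5.82 to 51.3 CPM (median 7.24) in replicates 2 and 3, a difference of -0.28 ± 0.063, with replicate 1 lowest in all 6 groups. Smaller differences were those of STC2, stanniocalcin 2, at -0.22 ± 0.028 and ANG, angiogenin, at -0.11 ± 0.030. CA9, a carbonic anhydrase much used as a hypoxia marker, was not called (-0.05 ± 0.094), and EDN1, endothelin 1, was the only member far above 0 (0.69 ± 0.28) but at medians of 0.463 CPM in replicate 1 and 0.269 CPM in replicates 2 and 3 and not called.

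BNIP3 and BNIP3L, receptors that mark mitochondria for autophagy, differed by -0.18 ± 0.029 and -0.19 ± 0.046. For BNIP3L replicate 1 was lowest in 5 groups and highest with Cinnamomi Cortex at 500 µg/mL. Of 13 oxygen-dependent hydroxylases and demethylases 6 were called lower and all 13 lay below 0. KDM3A, a demethylase of histone H3 lysine 9, was at 36.2 to 90.5 CPM (median 40.5) in replicate 1 and 50.4 to 91.8 CPM (median 59.0) in replicates 2 and 3, a difference of -0.38 ± 0.046, and the demethylases KDM7A and KDM4B differed by -0.25 ± 0.043 and -0.18 ± 0.050. The collagen-modifying genes LOX, PLOD2 and P4HA1 differed by -0.18 ± 0.038, -0.17 ± 0.038 and -0.16 ± 0.032. These levels were moderate and all 6 sat below 0 within each extract. KDM4B lost its call in 10 of 18 fits with 1 library left out.

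Of 21 tested regulators and stress proteins 10 were called lower, and all 21 lay below 0. NDRG1, a stress-responsive gene, was at 28.8 to 329 CPM (median 39.0) in replicate 1 and 43.5 to 355 CPM (median 62.3) in replicates 2 and 3, a difference of -0.54 ± 0.054, with replicate 1 lowest in all 6 groups. BHLHE40, a transcriptional repressor that also acts on the circadian clock, differed by -0.51 ± 0.065, and MIR210HG, the host transcript of the hypoxia microRNA miR-210, by -0.63 ± 0.13 at medians of 1.57 CPM in replicate 1 and 2.52 CPM in replicates 2 and 3. ANKZF1, which acts in ribosome quality control, was at 27.9 to 40.8 CPM (median 29.3) in replicate 1 and 36.6 to 46.1 CPM (median 39.7) in replicates 2 and 3, a difference of -0.36 ± 0.035. DDIT4, an inhibitor of mTORC1 signalling, CITED2, which competes with HIF for its coactivator, and the nuclear receptor gene RORA differed by -0.27 ± 0.044, -0.28 ± 0.046 and -0.27 ± 0.048. For BHLHE40 and CITED2 replicate 1 was lowest in 5 groups and highest with Cinnamomi Cortex at 500 µg/mL. SPAG4, INSIG2, an anchor of cholesterol sensing, and PPP1R3C, a glycogen-targeting subunit, made up the other called members. PPP1R3C lost its call in 13 of 18 fits with 1 library left out, and SPAG4 in 4.

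**Figure D2:**
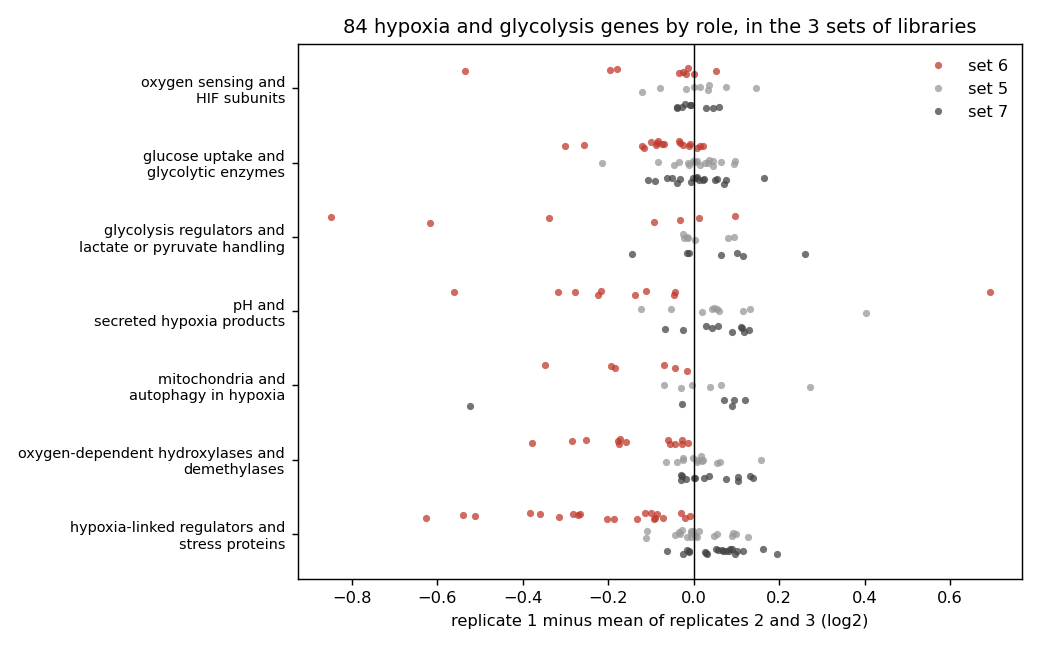
Log2 difference of replicate 1 from the mean of replicates 2 and 3 for 84 genes, grouped by role, in sets 6, 5 and 7; each point is 1 gene. In set 6, 76 genes lie below 0 with a median of -0.10, against medians of 0.0074 in set 5 and 0.03 in set 7.

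Outside the list, IGFBP1 (ENSG00000146678, chr7:45888357-45893668), a secreted binding protein of insulin-like growth factors that insulin lowers in liver, was at 86.4 to 3246 CPM (median 184) in replicate 1 and 137 to 3836 CPM (median 291) in replicates 2 and 3. Its difference was -0.60 ± 0.053, and replicate 1 was lowest in all 6 groups. It led the 3 called lower of 14 genes of gluconeogenesis and FOXO response, with PCK1, which commits carbon to glucose synthesis (-0.30 ± 0.051), and its coactivator PPARGC1A (-0.14 ± 0.042), while SESN1 was higher (0.13 ± 0.029). PLIN2, the coat protein of lipid droplets, was at 176 to 1128 CPM (median 196) in replicate 1 and 229 to 1230 CPM (median 258) in replicates 2 and 3, a difference of -0.35 ± 0.031. NR0B2, the bile acid-induced repressor, SLC51A, a bile acid exporter, and ABCA1, the cholesterol exporter, differed by -0.34 ± 0.042, -0.15 ± 0.042 and -0.10 ± 0.024 and were 3 of 13 on their list. The share called over all genes tested was 1.53% lower and 1.34% higher. PPARGC1A lost its call in 14 of 18 fits with 1 library left out, and SLC51A in 13.

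Chaperones were lower where called. The share called over all genes tested was 1.53% lower and 1.34% higher. Of 16 heat shock chaperones 4 were lower and 0 higher. HSPA8, the constitutive HSP70, was at 1073 to 1375 CPM (median 1135) in replicate 1 and 1224 to 1613 CPM (median 1451) in replicates 2 and 3, a difference of -0.27 ± 0.031, and its partners HSPH1 and DNAJA1 differed by -0.17 ± 0.028 and -0.14 ± 0.031. HSPA1A differed by -0.32 ± 0.047 but shares reads with its near-identical copy HSPA1B (-0.16 ± 0.052, not called). Both together summed to 135 to 210 CPM in replicate 1 and 167 to 236 CPM in replicates 2 and 3, and replicate 1 was lowest in 5 of 6 groups. Of 18 genes of the unfolded protein response of the endoplasmic reticulum 4 were lower and 0 higher, namely the cochaperone DNAJB9 (-0.28 ± 0.049), HERPUD1 (-0.17 ± 0.034), MANF (-0.17 ± 0.041) and DNAJC3 (-0.13 ± 0.035).

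On each of the following lists of growth and the cell cycle the called members lay in the same direction. Over all genes tested 1.34% were called higher and 1.53% lower. Of 16 targets of YAP and TEAD, factors that respond to cell contact and tension, 6 were higher and 0 lower: ANKRD1 (0.25 ± 0.052), AMOTL2 (0.17 ± 0.038), AJUBA (0.13 ± 0.031) and LATS2 (0.12 ± 0.031), with CCN1 and PTPN14. Of 30 genes of DNA replication 5 were higher and 0 lower. PCNA, the sliding clamp, was at 149 to 291 CPM (median 273) in replicate 1 and 143 to 268 CPM (median 251) in replicates 2 and 3, a difference of 0.12 ± 0.029, and the helicase and replisome genes MCM10, GINS1 and MCM7 differed by 0.15 ± 0.038, 0.13 ± 0.032 and 0.10 ± 0.027. Of 28 genes of mitosis 3 were lower and 0 higher, namely HMMR (-0.17 ± 0.043), BUB1 (-0.12 ± 0.035) and TPX2 (-0.10 ± 0.028). With 1 library left out, TPX2 lost its call in 11 of 18 fits, BUB1 in 10 and HMMR in 3. LATS2 and MCM7 each lost theirs in 5 of 18, AJUBA, MCM10 and GINS1 in 2, and AMOTL2 and PCNA in 1. Within each extract, 2 YAP and TEAD targets were called higher under Cinnamomi Cortex and 0 under Astragali Radix. For the replication genes these counts were 0 and 1, and for mitosis genes called lower also 0 and 1. Of 17 p53 targets 3 were higher and 0 lower. CDKN1A, the cell cycle inhibitor p21, was at 122 to 244 CPM (median 157) in replicate 1 and 108 to 228 CPM (median 121) in replicates 2 and 3, a difference of 0.26 ± 0.038, and the antiproliferative gene BTG2 differed by 0.26 ± 0.034.

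Of 21 NRF2 antioxidant genes SRXN1 (0.14 ± 0.026), TXNRD1 (0.13 ± 0.032) and ABCC3 (0.13 ± 0.036) were higher and 0 lower. The share called over all genes tested was 1.34% higher and 1.53% lower. ABCC3 lost its call in 9 of 18 fits with 1 library left out. CYP1A1, the classic target of the aryl hydrocarbon receptor, was at 9.69 to 43.0 CPM (median 13.1) in replicate 1 and 7.47 to 37.7 CPM (median 10.1) in replicates 2 and 3, a difference of 0.26 ± 0.044. The 13 genes of the mitochondrial genome had 0 called and a median of -0.09, which was 0.03 within Cinnamomi Cortex and -0.21 within Astragali Radix, and of 30 nuclear genes of the respiratory chain CYC1 (-0.22 ± 0.043) and SDHB (-0.17 ± 0.039) were lower. No member was called among 49 cytosolic ribosomal proteins, 16 acute phase and complement genes, 14 iron genes, 12 histones and 9 metallothionein and zinc export genes.

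**Figure D3:**
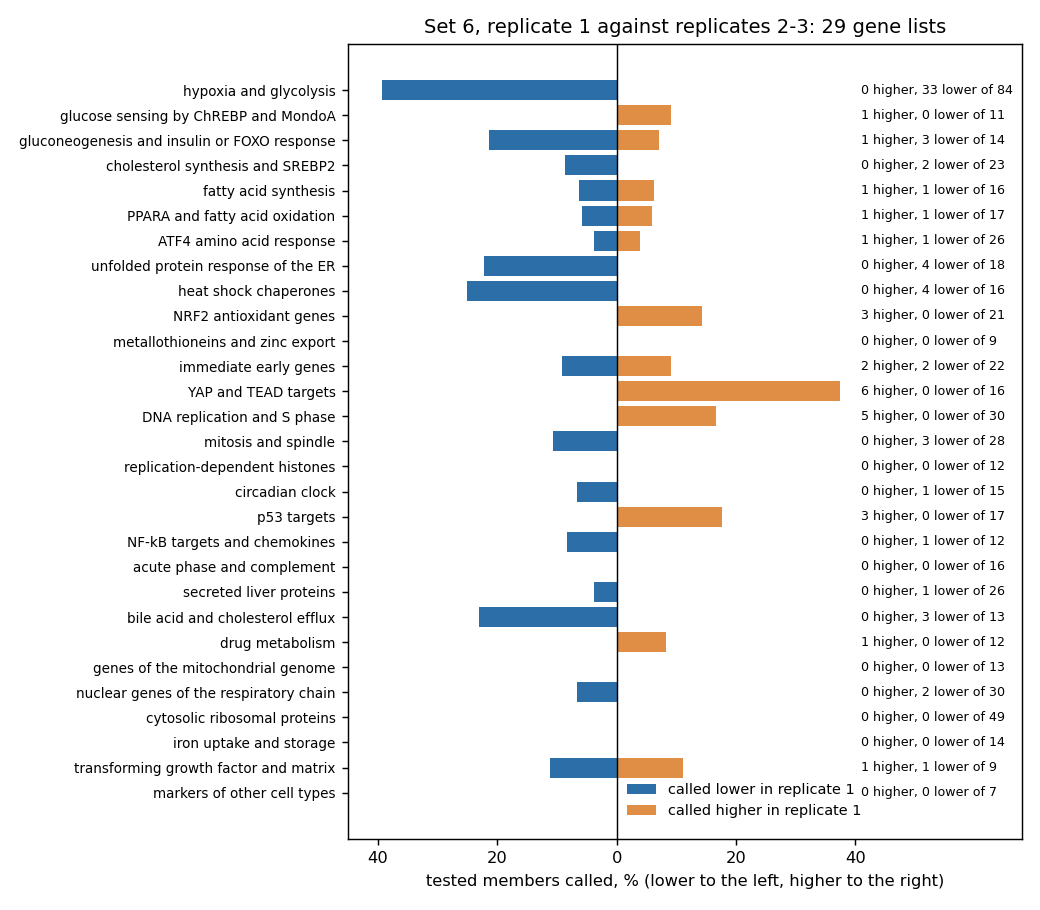
Share of the tested members of each of 29 gene lists called lower (bars to the left) or higher (bars to the right) in replicate 1 of set 6, with the counts at the right edge. Over all genes tested 1.53% were called lower and 1.34% higher.

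Replicates 2 and 3 of set 6 were compared with each other over the same 6 groups. Replicate 1 was chosen as the one set apart, so few calls between the other replicates were favoured by that choice. No gene was called by edgeR's quasi-likelihood test (0% of 16167), 1073 had an unadjusted p under 0.05, and DESeq2 also called 0; with no filter on low counts edgeR called 110. The median of the hypoxia list was -0.02. PFKFB3 differed by -0.08 ± 0.12 between replicates 2 and 3 (edgeR, adjusted p = 0.914), IGFBP1 by -0.01 ± 0.059 (adjusted p = 0.978) and HSPA8 by -0.03 ± 0.035 (adjusted p = 0.86).

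Replicate 1 against replicates 2 and 3 called 2 genes in set 5, which holds Cnidii Rhizoma and Rehmanniae Radix Preparata (0.0124%), and 2 in set 7, which holds Sagunja-tang and Samul-tang (0.0124%). DESeq2 called 78 genes in set 5 and 33 in set 7, against 440 in set 6, and edgeR with no filter on low counts called 276 and 271, against 497 in set 6. No member of the hypoxia list was among the genes called by edgeR with the filter. WBP2 was higher in set 5 (0.20 ± 0.037, edgeR, adjusted p = 0.0184). HMMR, a spindle gene among the lower ones of set 6, was higher in set 7 (0.21 ± 0.039, edgeR, adjusted p = 0.0207). The other 2, AL139099.4 in set 5 and ENSG00000274021 in set 7, averaged under 1 CPM and were named after their values were seen. Replicate 2 against replicate 3 called NEAT1 alone in set 5 (0.00619%), at -0.15 ± 0.027 (edgeR, adjusted p = 0.0263). In set 7 it called no gene by edgeR (0%), where 2328 had an unadjusted p under 0.05 and DESeq2 called 5. With 1 library left out, the replicate 1 contrast called 0 to 33 genes in set 5, the most without replicate 1 of Rehmanniae Radix Preparata at 100 µg/mL, and 0 to 58 in set 7, the most without replicate 1 of Samul-tang at 100 µg/mL. Across 11976 genes, which are not independent replicates, the differences of set 6 had a Pearson's r of -0.0249 with those of set 5 and -0.159 with those of set 7.

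The levels in the other sets show where replicate 1 of set 6 stood. PFKFB4 had medians over 6 libraries of 18.6, 29.8 and 32.9 CPM in replicates 1, 2 and 3 of set 6. They were 33.8, 34.4 and 33.4 CPM in those of set 5 and 24.8, 23.9 and 21.7 CPM in those of set 7. At 20 µg/mL, the lowest dose, the median of the 84 list genes as log2 over the vehicle mean was 0.03 and 0.09 in the 2 replicate 1 libraries of set 6 and 0.17 to 0.22 in the 4 of replicates 2 and 3. It was 0.18 to 0.26 in the 6 libraries of set 5 and 0.06 to 0.15 in the 6 of set 7. At that dose replicate 1 of set 6 overlapped set 7 and lay below set 5, and replicates 2 and 3 lay above set 7 and overlapped set 5.

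**Figure D4:**
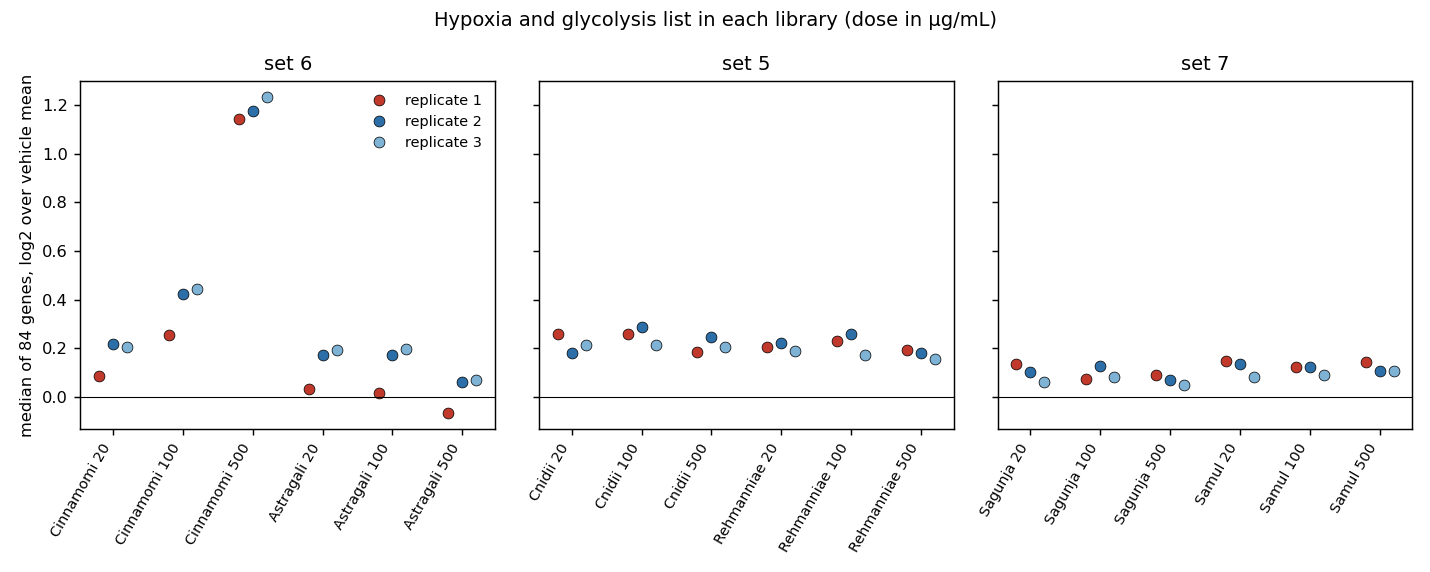
Median over 84 hypoxia and glycolysis genes of the log2 level over the mean of 3 vehicle libraries, for each library of sets 6, 5 and 7 by extract and dose in µg/mL. In set 6 replicate 1 is lowest in each group, and with Cinnamomi Cortex at 500 µg/mL replicates 1, 2 and 3 were at 1.14, 1.18 and 1.23.

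Within the 9 Cinnamomi Cortex libraries 37 genes were higher (0.229%) and 58 lower (0.359%) in replicate 1, 0.588% in all, and within the 9 Astragali Radix libraries 62 were higher (0.383%) and 141 lower (0.872%), 1.26% in all. The hypoxia list gave 10 lower members under Cinnamomi Cortex and 26 under Astragali Radix. The differences under the extracts, which share no library, had a Pearson's r of 0.319 across 11976 genes, again as a description. Whether the difference depended on the extract was tested as an interaction, and 6 of 16167 genes were called (0.0371%).

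KDM3A differed by -0.21 ± 0.050 under Cinnamomi Cortex and -0.58 ± 0.054 under Astragali Radix, an interaction of 0.35 ± 0.057 (edgeR, adjusted p = 0.00446). SLC2A3 differed by -0.15 ± 0.043 and -0.46 ± 0.045 in the same order (interaction 0.31 ± 0.061, adjusted p = 0.0439). TMCC1, a membrane protein gene, differed by -0.33 ± 0.069 and -0.79 ± 0.078 (interaction 0.43 ± 0.087, adjusted p = 0.0439), and NEDD9, a scaffold of cell adhesion signalling, by -0.18 ± 0.053 and -0.53 ± 0.056 (interaction 0.34 ± 0.066, adjusted p = 0.0378). These 4 were further below 0 under Astragali Radix. MAFIP, at about 2 CPM and on an unplaced scaffold, differed by -0.56 ± 0.18 and 0.73 ± 0.18 (interaction -1.28 ± 0.25, adjusted p = 0.0378). Without the 3 libraries of Cinnamomi Cortex at 500 µg/mL 0 interactions were called. The count was also 0 without replicate 1 of Cinnamomi Cortex at 500 µg/mL, of Astragali Radix at 500 µg/mL or of Astragali Radix at 100 µg/mL, each left out alone, and 1 to 9 without any other single library.

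**Figure D5:**
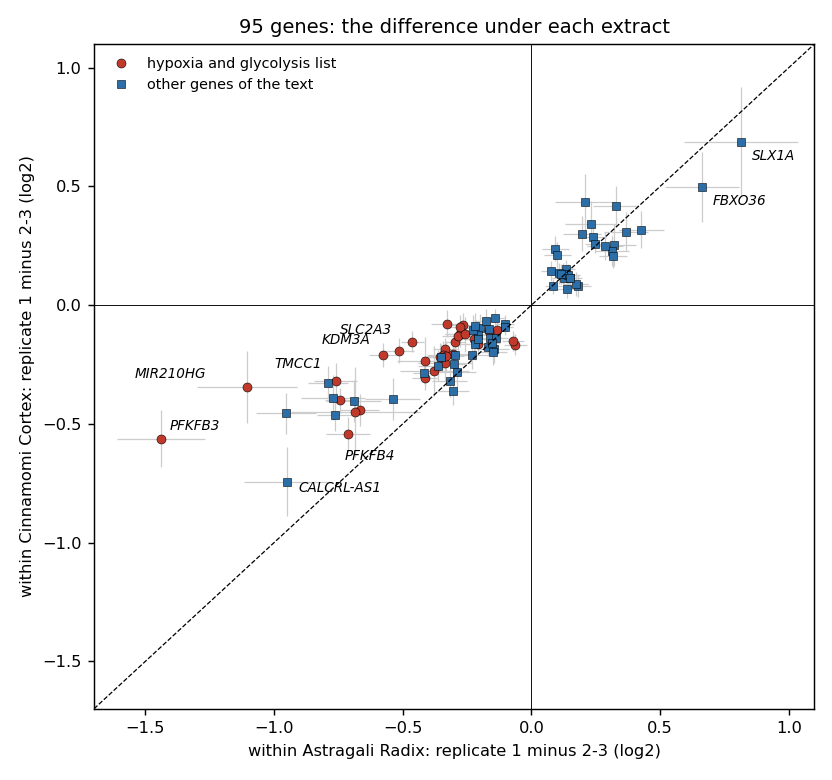
Log2 difference of replicate 1 from replicates 2 and 3 within the 9 Cinnamomi Cortex libraries (vertical) against the 9 Astragali Radix libraries (horizontal) for 95 genes named by rule; bars are SE and the dashed line marks equal differences. KDM3A and SLC2A3 lie above the line, with differences nearer to 0 under Cinnamomi Cortex than under Astragali Radix.

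At the highest dose of Cinnamomi Cortex the replicates of KDM3A, SLC2A3 and TMCC1 lay close together. There KDM3A was at 90.5 CPM in replicate 1 against 89.3 and 91.8 CPM in replicates 2 and 3, whereas with Astragali Radix at 500 µg/mL it was at 38.7 CPM against 50.4 and 52.8 CPM. SLC2A3 was at 245 CPM against 251 and 239.5 CPM with Cinnamomi Cortex at 500 µg/mL, and at 138 CPM against 165 and 158 CPM at 20 µg/mL. TMCC1 was at 195 CPM against 197 and 205 CPM at the highest dose and at 36.1 CPM against 55.1 and 53.8 CPM at the lowest. MAFIP went the other way, at 1.71 CPM against 3.40 and 3.28 CPM at the highest dose and 1.65 CPM against 2.34 and 2.04 CPM at the lowest. A linear change of the difference per 5-fold dose step, fitted over both extracts, was called by edgeR for no gene (0%), with 730 at an unadjusted p under 0.05 and 4 called by DESeq2.

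The dose trends show what the extracts did to the same genes. With Cinnamomi Cortex 10009 of 16167 genes changed with dose (61.9%). Of the 84 list genes 73 rose and 4 fell, with a median of 0.53 per 5-fold dose step against -0.01 over all genes. IGFBP1 rose by 1.88 ± 0.095 per step (edgeR, adjusted p = 1.18e-22) and PFKFB3 by 1.16 ± 0.12 (adjusted p = 7.68e-12). Of the 141 genes lower in replicate 1 under Astragali Radix, 103 rose with the dose of Cinnamomi Cortex and 21 fell, in libraries that share none with that contrast, while 30.5% of all genes tested rose and 31.4% fell. Of the 62 higher genes 19 rose and 20 fell. Replicate 1 was chosen for low hypoxia genes, and 26 of the 141 are on that list, most of which rose with Cinnamomi Cortex. These counts are therefore descriptions and no independent support.

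With Astragali Radix 187 of 16167 genes changed with dose (1.16%), 52 upward (0.322%) and 135 downward (0.835%). Of the list 5 fell and 0 rose, namely CA9, ALDOC, LOX, SLC2A1 and PLOD2, and without the replicate 1 libraries, where 110 genes were called, 4 fell (ALDOC, LOX, P4HA1 and PLOD2). The count of called genes was 106 without replicate 3 at 20 µg/mL. The list median was -0.04 per 5-fold dose step, against -0.0013 over all genes. The dose series of IGFBP1, from 20 through 100 to 500 µg/mL, read 174, 129 and 86.4 CPM for replicate 1. It read 283, 241 and 137 CPM for replicate 2, and 279, 238 and 146 CPM for replicate 3. IGFBP1 was lower at each higher dose in all 3 replicates, with replicate 1 below the others throughout, and the trend was -0.49 ± 0.089 per step (edgeR, adjusted p = 0.000627).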

How the data were processed

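RNA was measured by paired-end sequencing of 100 bp reads from a directional library, per the labels' protocols, and RNA integrity numbers were above 7. The authors deposited a table of RSEM expected counts per Ensembl gene; per the submitters' processing notes the tools include STAR 2.7.3a, RSEM 1.3.3, Trim Galore 0.6.5 and FastQC 0.11.9 and the build is GRCh38, and the annotation release is not given in the sources used here. Of 60675 identifiers 57055 matched GENCODE 29, which gave the names. Columns were matched to samples by name; 210 of 270 were not used. Expected counts, of which 8.58% were not whole, were rounded.

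Counts of 57 libraries (Palmul-tang was left out) were filtered by filterByExpr, scaled by TMM and fitted with edgeR 4.0.16 in R 4.3.3, using the quasi-likelihood test with Benjamini-Hochberg adjustment over 16167 genes. The model had a term for each of 19 groups and, in each set, terms for replicate 1 minus the mean of 2 and 3 and for replicate 2 minus 3; further terms gave the interactions. Dose trends came from a fit without replicate terms, per 5-fold step. CPM are TMM-scaled. Fits were tested on simulated data. Precision is given as the SE of each fitted difference. The named genes are the 12 called genes with the largest difference in each direction at a mean of at least 2 CPM with replicate 1 extreme in all 6 groups, every called hypoxia list member, and up to 4 called members of each other list by adjusted p; for the other contrasts they are the called genes of at least 2 CPM, up to 4 in each direction. Members and lists were chosen with earlier results of these data known. Alternatives were RLE size factors, no filter, only the set's libraries, DESeq2 1.42.0, 1 library left out in turn, 1 extract, 1 other replicate as comparison, and a replicate block. Motifs were searched in RefSeq promoters. The values of 1 gene are not reported here.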

Additional observations from a re-analysis of the deposited data

Results flagged for a closer look

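For each of the 95 named genes the 6 differences of replicate 1, 1 for each extract and dose, were searched for a value set apart from the others by more than the critical gap. Chance flags about 1 in 20 groups of unselected values, and 11 of 95 genes were flagged. These genes were named on the same differences and share their libraries, so the count cannot be compared with chance. With Cinnamomi Cortex at 500 µg/mL the difference of NDRG1 was -0.10, against -0.73 to -0.60 in the other groups. At that dose PFKFB4 was at -0.22 (others -0.86 to -0.63), TNS1 at -0.014 (others -0.84 to -0.67), CITED2 at 0.039 (others -0.43 to -0.28) and PLIN2 at -0.10 (others -0.46 to -0.36). HERPUD1 was at 0.017 (others -0.25 to -0.16), FOXA2 at 0.0091 (others -0.22 to -0.19) and SLC51A at 0.12 (others -0.24 to -0.20) at the same dose. The other flags lay elsewhere. PTP4A3, a phosphatase gene, was at 0.60 with Astragali Radix at 20 µg/mL (others 0.28 to 0.36), and CCL20, a chemokine gene, at -0.49 there (others -0.29 to -0.19). ABCC3 was at -0.10 with Cinnamomi Cortex at 100 µg/mL (others 0.14 to 0.23).

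The replicate 1 difference itself differed between the extracts by the interaction test given above for the genes that follow. Cinnamomi Cortex minus Astragali Radix was 0.35 for KDM3A, 0.43 for TMCC1, 0.34 for NEDD9, 0.31 for SLC2A3 and -1.28 for MAFIP.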

How the results depend on the processing

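The main fit of the replicate 1 contrast called 464 genes in set 6. Calls numbered 95 within Cinnamomi Cortex, 203 within Astragali Radix and 282 against replicate 2 alone. Of these, 90, 175 and 257 were among the 464. With no filter on low counts 497 were called, 310 of them among the 464. With 1 library left out the count ran from 255 to 443. It was lowest, at 255, without replicate 1 of Cinnamomi Cortex at 20 µg/mL. Without replicate 1 of Astragali Radix at 100 µg/mL it was 288. The 95 named genes were picked as called in this contrast, so a reversal was unlikely from the start, and 0 reversed under any alternative run. Of the 95 genes 57 were kept with every single library left out, and 8 were lost without Cinnamomi Cortex at 500 µg/mL. The cause of these and the following shifts was not tested. With no filter on low counts the calls were 110 for replicate 2 against 3 in set 6, 276 and 136 for the contrasts of set 5, 271 and 312 for those of set 7, 83 for the extract interaction, 108 for the dose step and 292 for the Astragali Radix trend. DESeq2 gave 78 and 5 in set 5, 33 and 5 in set 7, 11 for the interaction and 4 for the dose step. With only the set's own libraries the counts were 0 and 0 in set 5, 1 for replicate 1 of set 7 and 1 for the dose step. The interaction count was 3 with RLE and 0 without Cinnamomi Cortex at 500 µg/mL. Leaving out 1 library gave 0 to 0 for replicate 2 against 3 in set 6, 0 to 33 and 0 to 2 in set 5, 0 to 58 and 0 to 26 in set 7, 0 to 9 for the interaction, 0 to 3 for the dose step, 9347 to 10026 for the Cinnamomi Cortex trend and 106 to 196 for the Astragali Radix trend. The highest came without replicate 1 of Rehmanniae Radix Preparata at 100 µg/mL (33), replicate 1 of Samul-tang at 100 µg/mL (58) and replicate 2 of Sagunja-tang at 20 µg/mL (26), and the 106 without replicate 3 of Astragali Radix at 20 µg/mL. Same-numbered libraries of set 6 had median correlations of 0.114, 0.076 and 0.0713 for replicates 1, 2 and 3, with 10, 6 and 6 of 15 pairs over 0.1, and differently numbered ones -0.0396, with 3 of 90 over 0.1. Same-numbered libraries thus correlated more often, but not every pair passed 0.1, so the numbers were not taken to pair the libraries. With a replicate block the Astragali Radix trend called 313 genes, 186 of them among the 187, and the Cinnamomi Cortex trend 10180. Without the 6 replicate 1 libraries they called 110 and 9023. With the block 8 hypoxia list genes fell with Astragali Radix (also NDRG1, BNIP3L and P4HA1) against 5 without, and NDRG1 had an adjusted p of 0.0302 with the block and 0.45 without (edgeR). Depth, lowest in replicate 1 of Astragali Radix at 500 µg/mL, limits genes near 1 CPM such as EGLN3 and MIR210HG.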

Other observations

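The genes below were chosen after their values were seen and carry no test. RBM3 and CIRBP, RNA-binding proteins known to be induced by mild cold, were higher in replicate 1 of set 6. RBM3 was at 133 to 164 CPM (median 149) in replicate 1 and 117 to 145 CPM (median 126) in replicates 2 and 3, a difference of 0.20 ± 0.031, and CIRBP at 74.3 to 86.0 CPM (median 78.1) in replicate 1 and 65.0 to 75.9 CPM (median 71.7) in replicates 2 and 3, a difference of 0.14 ± 0.039. Replicate 1 had the highest RBM3 and CIRBP values in all 6 groups. In sets 5 and 7 the same contrast was -0.03 and 0.0051 for RBM3 and -0.02 and -0.10 for CIRBP. The cochaperone gene CHORDC1 was lower, with -0.16 ± 0.042.

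Among genes known to be induced by hypoxia and not on the list, 4 that were seen to be lower in replicate 1 of set 6 are given; others were not counted. EFNA1, an ephrin gene, was at 51.6 to 93.7 CPM (median 56.1) in replicate 1 and 63.3 to 109 CPM (median 69.6) in replicates 2 and 3, a difference of -0.30 ± 0.036, and the cyclin gene CCNG2 differed by -0.29 ± 0.043. ERRFI1, a feedback inhibitor of the EGF receptor, and SAP30, part of a histone deacetylase complex, differed by -0.24 ± 0.030 and -0.24 ± 0.067. Of genes of the start of S phase outside the replication list, 4 that were seen to be higher are given, and others were not counted: CDC25A by 0.14 ± 0.026, ORC1 by 0.16 ± 0.036, CHAF1B by 0.15 ± 0.035 and E2F2 by 0.20 ± 0.050. CDC25A was at 32.3 to 69.5 CPM (median 62.6) in replicate 1 and 29.8 to 66.6 CPM (median 56.2) in replicates 2 and 3, and replicate 1 was highest in all 6 groups.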
